A study of Mus musculus with 8 samples.

Results

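The 10 genes described here, which are read strongly in the fetal liver and little in the adult liver, most of them imprinted or tied to growth control, were followed in an ATAC-Seq series of mouse liver regeneration. They were H19, Igf2, Dlk1, Meg3, Gpc3, Igf2bp1, Igf2bp3, Lin28b, Hmga2 and Plagl1. ATAC-Seq maps open DNA by where the Tn5 transposase cuts it. Around each of them every peak interval overlapping the gene body or its 20 kb flanks was taken. They are 10 of 27792 protein-coding and lincRNA genes in the annotation, and their windows held 193 of the 315767 regions that the series' peak lists cover together. Of these regions, 24 lay within 1 kb of a transcription start site (TSS) of their gene and were called promoter regions, and 169 were called distal. H19 and Igf2 lie in the same imprinted locus on chromosome 7, and Dlk1 and Meg3 in the same imprinted cluster on chromosome 12, so each pair is not independent.

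The hepatocytes came from mice labelled C57BL/6 (C57BL/6J in the study's methods), males of 10 to 12 weeks on a normal diet, isolated from the liver by collagenase perfusion. The 4 groups were undamaged liver (0 h) and liver taken 48, 72 or 96 h after partial hepatectomy (PHx), an operation that removes a share of the organ and lets the rest regrow. Each group had 2 libraries, with no other genotype or agent, and the 3 time points after PHx share the same 0 h libraries. Isolated hepatocytes may still hold cells of other types, and in such bulk nuclei a change in the share of a cell type and a change of accessibility within the cells cannot be told apart.

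In an imprinted gene only the copy from 1 parent is active, because DNA methylation laid down in the germ line differs between the parental copies. At the Igf2 and H19 locus the insulator protein CTCF binds the unmethylated maternal control region upstream of H19 and keeps distant enhancers, which both genes share, from Igf2. At the cluster of Dlk1 and Meg3 a methylated region between both genes plays the corresponding role. Outside imprinting, Lin28b, Hmga2, Igf2bp1 and Igf2bp3 are best known as fetal growth genes joined by the let-7 microRNAs, which repress them in adult tissue. Many of the 10 genes are switched off in the liver after birth and return in liver cancer, and for this reason they are called oncofetal.

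The sequences at the centre of the regions that the results turn on are given first. Each is 200 bases of GRCm38.p6 (mm10) around the summit of the strongest interval, read 5′ to 3′ on the strand of its gene. A region is named by the distance in bp from the nearest annotated start of its gene to that summit, with a minus for upstream. Capitals mark matches to the sequence motifs that were searched on both strands. The H19 -2212 region (chr7:142580255-142580454, minus strand) is shown because it holds a CTCF-type match and an AP-1 match, the Meg3 -13364 region (chr12:109527537-109527736, plus strand) because of its repeats, and the Meg3 -9221 region (chr12:109531680-109531879, plus strand) because it was the strongest around Meg3. The Meg3 2006 region (chr12:109542913-109543112, plus strand) holds a CTCF match within the gene. The last pair, the Hmga2 -357 promoter region (chr10:120476726-120476925, minus strand) and the Hmga2 58802 intronic region (chr10:120417567-120417766, minus strand), moved in opposite directions.
H19 -2212: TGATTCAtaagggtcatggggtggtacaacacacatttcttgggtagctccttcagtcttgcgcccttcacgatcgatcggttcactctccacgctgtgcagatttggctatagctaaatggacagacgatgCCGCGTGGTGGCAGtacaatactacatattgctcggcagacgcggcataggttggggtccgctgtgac
Meg3 -13364: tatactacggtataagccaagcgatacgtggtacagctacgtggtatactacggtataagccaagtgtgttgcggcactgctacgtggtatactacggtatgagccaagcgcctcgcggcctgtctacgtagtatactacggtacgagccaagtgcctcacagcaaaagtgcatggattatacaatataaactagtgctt
Meg3 -9221: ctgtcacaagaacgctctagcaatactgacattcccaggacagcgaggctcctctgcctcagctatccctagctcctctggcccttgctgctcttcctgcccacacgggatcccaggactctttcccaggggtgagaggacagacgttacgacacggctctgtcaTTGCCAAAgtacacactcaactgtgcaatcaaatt
Meg3 2006: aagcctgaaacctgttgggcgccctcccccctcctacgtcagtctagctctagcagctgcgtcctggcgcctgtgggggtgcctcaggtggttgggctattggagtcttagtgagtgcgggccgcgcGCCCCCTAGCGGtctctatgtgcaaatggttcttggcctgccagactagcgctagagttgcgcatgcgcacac
Hmga2 -357: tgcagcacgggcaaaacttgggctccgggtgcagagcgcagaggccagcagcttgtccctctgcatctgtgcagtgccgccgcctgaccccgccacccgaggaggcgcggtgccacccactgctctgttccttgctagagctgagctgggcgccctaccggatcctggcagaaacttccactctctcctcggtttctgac
Hmga2 58802: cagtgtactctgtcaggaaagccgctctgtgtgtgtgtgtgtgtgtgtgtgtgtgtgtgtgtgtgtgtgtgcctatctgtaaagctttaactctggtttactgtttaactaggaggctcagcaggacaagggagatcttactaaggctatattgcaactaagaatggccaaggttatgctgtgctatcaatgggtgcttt

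The lists give no read counts, so the depth of the libraries is unknown. They held between 105206 and 154577 distinct intervals. Intervals were therefore compared by their rank within a library, where rank 1 is the interval with the highest −log10 p, and an interval was called kept if it was among the 50000 strongest. The list of 72 h replicate 2 carries a run name of another form than the other 7, and the effect of leaving this and every other library out is given among the limits. The promoters of all 8 hepatocyte markers had an interval, and 3 to 7 of them were kept in each library. None of the 5 Kupffer cell marker promoters was kept in any library, and of the 5 endothelial ones Kdr was kept in 72 h replicate 2 alone. Of the 5 cholangiocyte markers 1 to 3 were kept in each library and of the 5 stellate cell markers 3 in every library, namely Col1a1, Lrat and Reln. Col1a1, Des and Reln ranked higher in both 48 h libraries than at 0 h, while 6 of the 8 hepatocyte markers ranked lower, against 16.2% higher and 25.2% lower among all promoters. The nearest ranks of both groups differed by only 0.14 (log2) for Col1a1 and 0.08 for Reln, and Des was kept in no library. Of the cholangiocyte, Kupffer cell and endothelial markers 0 ranked higher at 48 h, and only the cholangiocyte marker Spp1 ranked lower. At 72 h 7 of the 8 hepatocyte markers and 1 of the 5 cholangiocyte markers ranked lower (26.8% of all promoters). No marker, stellate ones included, ranked higher (16.3%). At 96 h 3 hepatocyte markers ranked lower (17.3%), and 1 stellate and 1 endothelial marker higher (13.9%). The part of such shifts in the values below was not tested.

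The first question was which of the 10 promoters were open in hepatocytes at all. The 10 promoters ran from nearly absent to firmly open. Those of Gpc3, a glypican that binds growth factors at the cell surface, and Lin28b, an RNA-binding protein that blocks the maturation of let-7, were kept in all 8 libraries. Those of Igf2, Igf2bp1 and Hmga2 had an interval in all 8 lists, those of Dlk1, Igf2bp3 and Plagl1 in 7, and those of the noncoding RNA genes H19 and Meg3 in 2 and 1. Over all protein-coding genes, 60.8% of 21938 promoters had an interval in all 8 lists, 50% were kept in all 8 and 24.7% had none. Over 5854 lincRNA genes the corresponding shares were 17.5%, 11.2% and 60.4%.

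**Figure D1:**
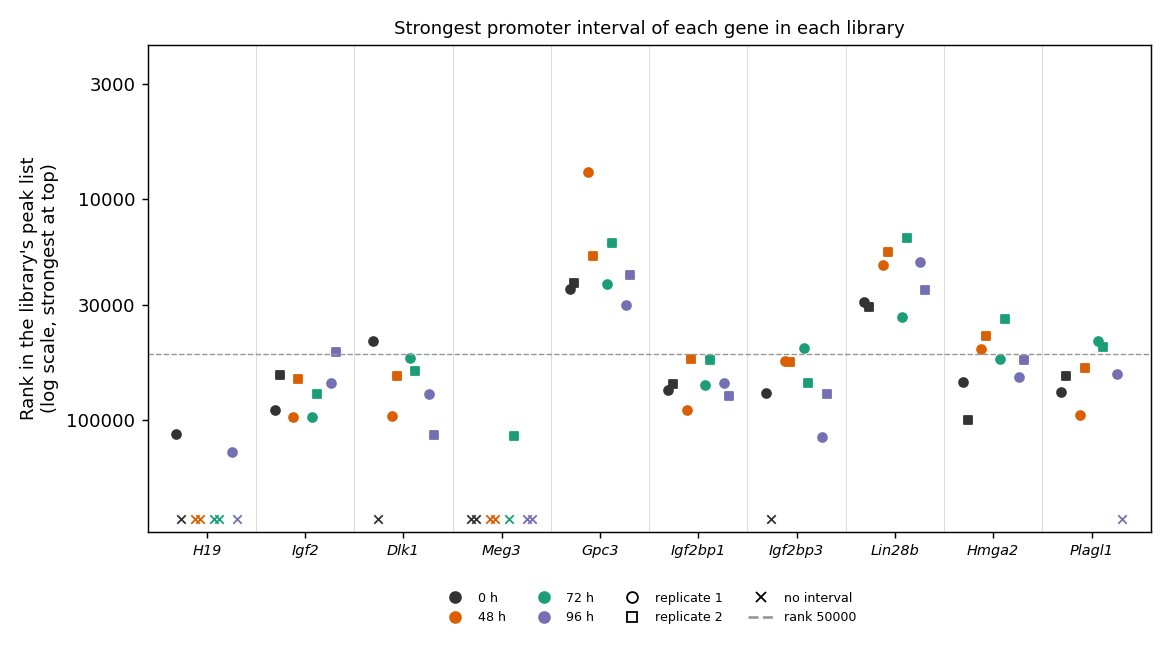
Rank of the strongest promoter interval of each of the 10 genes in each of the 8 libraries, on a log axis with the strongest at the top. Circles and squares are replicates 1 and 2, colours are the time points, crosses mark libraries with no interval and the dashed line is rank 50000. Gpc3 and Lin28b lie above the line in every library, and H19 and Meg3 have an interval in 2 and 1 libraries.

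The order of the promoters followed their CpG content in part. The ratio of observed to expected CpG was taken in the 1000 bases around a start. Where a gene had several starts, the one with the highest ratio was used, here and over all genes. That start need not be the one with the strongest interval. The ratio was 0.476 at H19 and 0.532 at Meg3, the lowest of the 10. It was 0.629 to 1.08 at the other 8, with Lin28b highest. Gpc3, kept in all 8 libraries, had only 0.629, and Igf2bp3, with an interval in 7 lists and kept in 1, had 0.957. Among all genes, 91% of the 11671 promoters with a ratio of at least 0.6 had an interval in all 8 lists and 79.1% were kept in all 8, against 23.2% and 14.9% of the 16121 promoters below it. Of the 8 members with a ratio above 0.6, 5 had an interval in all 8 lists and 2 were kept in all 8.

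Compared with 0 h, 4 of the 10 promoters, those of Gpc3, Igf2bp3, Lin28b and Hmga2, ranked higher in both 48 h libraries, meaning that the ranks of both groups did not overlap. None of the 10 ranked lower. Over all genes 16.2% of 17575 promoters ranked higher at 48 h and 25.2% lower. At 72 h those of Igf2bp3, Hmga2 and Plagl1 ranked higher, with shares over all genes of 16.3% higher and 26.8% lower. At 96 h those of Lin28b and Hmga2 did, with shares of 13.9% and 17.3%. No member promoter ranked lower at 72 or 96 h. With 2 libraries against 2 the smallest two-sided p of an exact permutation test is 0.333, so these are descriptions.

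Hmga2, a chromatin protein that bends AT-rich DNA and supports fetal growth, was the only one of the 10 whose promoter ranked higher in all 6 libraries after PHx than in both at 0 h. Its strongest interval ranked 67462 and 99891 at 0 h (replicates 1 and 2), 47598 and 41768 after 48 h, 52741 and 35041 after 72 h, and 63800 and 53361 after 96 h. The weakest library after PHx, 96 h replicate 1, lay close to the stronger 0 h library. Of all 18844 promoters with an interval, 3.77% ranked higher in all 6 and 6.25% lower. An exact permutation test of 2 libraries against 6 cannot go below p = 0.0714 (two-sided), so this is a description. Ranked by fold enrichment in place of −log10 p, the 96 h ranks overlapped those at 0 h.

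Without 0 h replicate 2 the Hmga2 promoter still ranked higher at each time. Its fold enrichment, the height of a peak over its local background, rested more on that library. At the Hmga2 promoter region (chr10:120475601-120477410) it was 4.67 and 2.53 at 0 h, 4.53 and 5.21 after 48 h, 5.03 and 5.94 after 72 h, and 4.60 and 4.64 after 96 h. The 0 h replicate 2 value was the lowest of all 8, and the other 0 h value lay among those after PHx. Over the 57473 regions with an interval in all 8 lists, the median log2 fold enrichment at 48 h lay -0.39 from that at 0 h, and -0.05 and -0.11 at 72 and 96 h, so differences were tested after quantile normalization and are relative to that shift. On this scale the region was 0.79 ± 0.28 (log2, SE) higher at 48 h, with an unadjusted p of 0.0157 and an adjusted p of 0.405 by limma. Without 0 h replicate 2 the difference was 0.38.

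Gpc3 and Lin28b, the promoters kept throughout, both ranked higher at 48 h. The Gpc3 promoter region (chrX:52613335-52614561) ranked 25595 and 23915 at 0 h, 7576 and 18176 after 48 h, 24258 and 15789 after 72 h, and 30044 and 22054 after 96 h. By rank the 48 h libraries alone lay clear of 0 h, and 96 h replicate 1 was the weakest of all 8. By percentile within the list, which takes its length into account, those at 72 h (82.7 and 89.8, against 79.8 and 77.3 at 0 h) were higher as well, and by fold enrichment those at 96 h were lower. The Lin28b promoter region (chr10:45485602-45487103) ranked 29241 and 30854 at 0 h, 19882 and 17403 after 48 h, 34226 and 15035 after 72 h, and 19184 and 25780 after 96 h. At 72 h its libraries fell on either side of the 0 h pair. In normalized log2 fold enrichment the 48 h difference was 0.28 ± 0.26 (SE, limma adjusted p = 0.776) for Gpc3 and 0.26 ± 0.26 (limma adjusted p = 0.786) for Lin28b, so that neither exceeded its error by much. The Lin28b region surrounds the 5′ end of the gene record. The basic annotation alone leaves that end out. With its starts the promoter was left with the Lin28b 989 region, which had an interval in 3 lists and was kept in none, so that it overlapped 0 h at 48 h, was higher at 72 h and had no value at 96 h. That the promoter was kept in all 8 libraries thus rests on the start definition, which was chosen after the data were seen. Ranked by fold enrichment, the promoter overlapped 0 h at 96 h.

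Igf2bp1 and Igf2bp3 encode fetal RNA-binding proteins that stabilize growth-related mRNAs, Igf2 among them. The Igf2bp3 promoter interval ranked 75713 in 0 h replicate 1 and had no interval in replicate 2. It ranked 53915 and 54369 after 48 h, 47285 and 67675 after 72 h, and 119570 and 76361 after 96 h, so the 48 and 72 h libraries were higher and those at 96 h overlapped. This interval lies in an intron with its summit at 1075 bp, and it was not counted with a promoter window of 500 bp. With the starts of all transcripts the ranks overlapped 0 h at 48 and 72 h. The Igf2bp1 promoter ranked 72941 and 68858 at 0 h, 90308 and 53171 after 48 h, 69646 and 53613 after 72 h, and 67993 and 78010 after 96 h. It was never kept and every time point overlapped 0 h by rank. By percentile within the list and by fold enrichment it was higher at 72 h, and with a promoter window of 2 kb higher at 48 h.

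Plagl1, an imprinted zinc finger gene that acts in a network with Igf2, H19 and Dlk1, ranked 74771 and 63083 at 0 h, 94861 and 57920 after 48 h, and 43667 and 46536 after 72 h. It ranked 61757 in 96 h replicate 1 and had no interval in replicate 2. Only the 72 h libraries were clear of 0 h, and they were also the only libraries in which the promoter was kept. The Dlk1 promoter, of a membrane protein of the Notch ligand family that marks hepatoblasts, ranked 43754 and none at 0 h, 95752 and 63240 after 48 h, 52599 and 59839 after 72 h, and 76077 and 116911 after 96 h. Its 0 h replicates were thus further apart than any later pair and no time point could be separated from them.

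The promoters of the growth factor gene Igf2 stayed weak. The strongest interval over its 8 promoter regions, which was not the same region in every library, ranked 90403 and 62406 at 0 h, 96379 and 65406 after 48 h, 96728 and 75967 after 72 h, and 67762 and 49369 after 96 h, kept in 96 h replicate 2 alone. The strongest single promoter region by median rank, the Igf2 -713 region (chr7:142661790-142662106), ranked 125773 and 62406 in the 0 h libraries. It was missing from both 48 h lists, and ranked 96728 and 75967 after 72 h and 67762 and 49369 after 96 h. It was lower at 48 h, as was the Igf2 153 region, and overlapped 0 h at the later times, while the Igf2 537 region was higher at 48 h. The strongest intervals together overlapped 0 h at every time, although by percentile within the list, which takes its length into account, they were higher at 96 h and with a promoter window of 500 bp lower at 72 h. H19 had a promoter interval in 0 h replicate 1 (rank 115719) and 96 h replicate 1 (139275). An interval of 72 h replicate 2 (145826) merged into the same region as the latter but ended short of the 1 kb around the start, so it was not counted. Meg3 had 1 in 72 h replicate 2 (118126). These ranks lie late in the lists, and nothing can be read from their presence or absence.

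The second question was what lay open around the promoters. By the median rank over the 8 lists, a distal region was stronger than the best promoter region at 9 of the 10 loci, the exception being Gpc3. The windows held 169 distal and 24 promoter regions, so the best distal region was picked from more. The corresponding share over all genes was not computed. At Igf2 the distal region lay at the promoter of Ins2. The distal and promoter medians lay close at Lin28b (19914 and 22831) and Gpc3 (25064.5 and 22984.5). Of all 315767 regions of the series, 57473 had an interval in all 8 lists and 73374 were kept in at least 1 library. The regions in 1 list and those kept in all 8 libraries were not counted over the series. Of the 193 regions, 31 had an interval in all 8 lists, 94 in 1 list, 44 were kept in at least 1 library and 15 in all 8. Igf2bp3 had 5 of these 15, Dlk1, Gpc3 and Lin28b 2 each, Igf2, Meg3, Hmga2 and Plagl1 1 each, and H19 and Igf2bp1 none. The Igf2 window was the densest, at 44.6 regions per 100 kb, and that of Gpc3 the sparsest, at 4.98, against a median of 19.4 over the windows of all protein-coding genes.

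Upstream of H19, in the part of the locus where the imprinting control region is known to lie, 2 regions were kept in some libraries. The H19 -2212 region (chr7:142580051-142580880) ranked 41918 and 23876 at 0 h, 56495 and 59842 after 48 h, and 28690 and 66938 after 72 h. At 96 h it ranked 67415 in replicate 1 and had no interval in replicate 2. It was kept in both 0 h libraries and in 1 of the 6 after PHx, and so was lost at 48 and at 96 h. The H19 -3676 region (chr7:142581691-142582136) ranked 62007 and none at 0 h, 51810 and none after 48 h, 45046 and 82028 after 72 h, and 43495 and none after 96 h, with no separation by time.

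Both regions carry the long CTCF motif of this control region, here searched on both strands in a form of 14 letters of which 2 were free. The 10 kb upstream of H19 hold 3 matches, all on the strand of H19 and all inside these regions. They are CCGCGTGGTGGCAG at chr7:142580309-142580322 and CCGCGCGGTGGCAG at chr7:142580764-142580777 in the H19 -2212 region, and CCGCGTGGTGGCAG at chr7:142582034-142582047 in the H19 -3676 region. All chromosomes together have 58 matches, of which 65.5% lie in a region of the series and 62.1% in one kept in some library. Within 200 bases of summits the motif was found in 0.00475% of all regions and 0.0191% of kept ones. The motif was chosen after the region was seen, and a match does not show binding. The first match and an AP-1 match (TGANTCA, in 7.48% of all regions) are the capitals in the sequence above.

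In the cluster of Dlk1 and Meg3 a row of regions upstream of Meg3 changed rank in different directions. The Meg3 -9221 region (chr12:109531320-109532173) ranked 12393 and 13468 at 0 h, 5327 and 6348 after 48 h, 9074 and 9238 after 72 h, and 7211 and 10794 after 96 h, higher in all 6 libraries after PHx. It holds a C/EBP match (TTNNGCAA, in 9.89% of all regions and 13.2% of kept ones) and overlaps an exon of the noncoding gene Gm27528. Its fold enrichment was 10.5 and 10.3 at 0 h and 9.95 to 10.9 after PHx, with no separation of the groups, while the median of the series lay lower at 48 h, and the normalized difference at 48 h was 0.39 ± 0.23 (log2, SE, limma adjusted p = 0.611). The Meg3 -19365 region (chr12:109521225-109522040) did the reverse. It ranked 32050 and 31887 at 0 h, 44963 and 42483 after 48 h, 36287 and 59254 after 72 h, and 38848 and 46085 after 96 h, lower in all 6.

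The Meg3 -13364 region (chr12:109527486-109528422) lies between both genes, where the methylated control region of the cluster is known to be. It ranked 64730 and 72090 at 0 h, 29877 and 92065 after 48 h, 34606 and 60788 after 72 h, and 49958 and 24047 after 96 h. Its 48 h replicates lay on either side of 0 h, and it ranked higher than 0 h at 72 and 96 h. It was kept in both libraries at 96 h and in neither at 0 h, which made it a gained region. The 200 bases shown above hold the 12 letters tatactacggta 4 times, and no other region of the series held them 3 times or more around its summit. The Meg3 -7364 region (chr12:109533258-109533911) was gained at 96 h as well, ranking 53522 and 73720 at 0 h and 48938 and 44215 after 96 h. Its ranks at 48 h (59855 and 39257) and 72 h (57830 and 47468) overlapped those at 0 h.

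Within Meg3, the 2006 region (chr12:109542775-109543166, intron) ranked 26435 and 19657 at 0 h, 44964 and 36818 after 48 h, 60934 and 28904 after 72 h, and 39910 and 23286 after 96 h. It was lower at 48 and 72 h and overlapped 0 h at 96 h. It is among the 9 of 193 regions with a CTCF match around the summit (4.66%, against 2.85% of all regions). Among regions kept in some library the match was in 5 of 44 member regions (11.4%) and in 8.81% of all. The strongest region around Dlk1, the -16379 region (chr12:109436158-109437203), ranked 6744 and 6476 at 0 h, 14431 and 6482 after 48 h, 3249 and 5452 after 72 h, and 4270 and 7752 after 96 h, higher than 0 h at 72 h only.

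**Figure D2:**
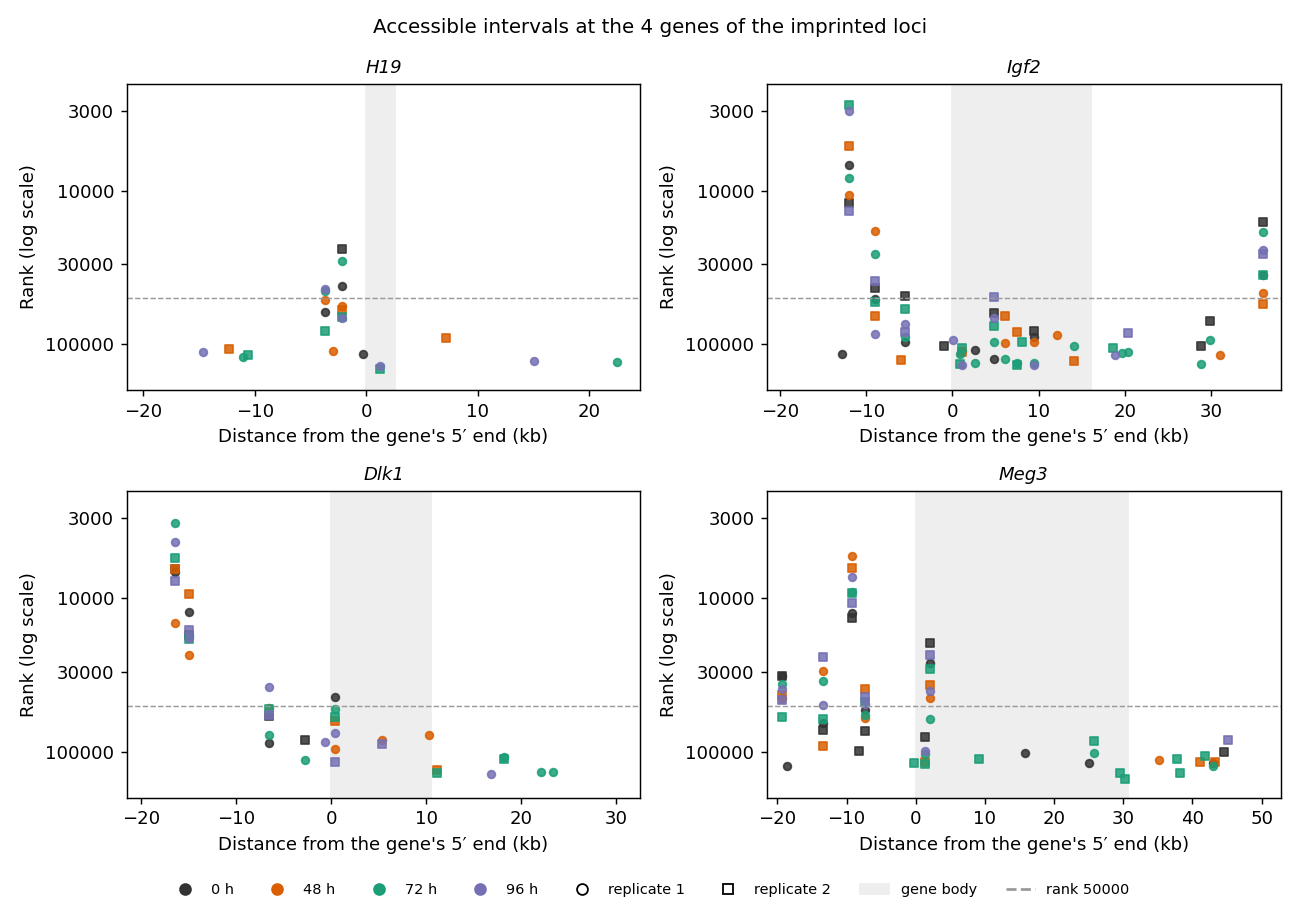
Rank (log axis, strongest at the top) of every interval around H19, Igf2, Dlk1 and Meg3 in the 8 libraries, by the distance of the region's strongest summit from the 5′ end of the gene in kb. Grey marks the gene body, colours the time points, circles and squares replicates 1 and 2, and the dashed line rank 50000. Most intervals above the line lie upstream of the gene bodies.

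Around Igf2 the strongest region was the -12024 region (chr7:142678519-142679160), which lies at the promoter of the neighbouring insulin gene Ins2 and ranked between 2762 and 13506 in the 8 libraries with no separation by time. The Igf2 26617 region (chr7:142630342-142631215), downstream of the gene, ranked 35621 and 16040 at 0 h, 46344 and 54739 after 48 h, 18668 and 35662 after 72 h, and 24156 and 25854 after 96 h. It ranked lower at 48 h alone, with a difference of -0.70 ± 0.29 in normalized log2 fold enrichment (SE, limma unadjusted p = 0.0312, adjusted p = 0.454).

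Inside Hmga2, the 58802 region (chr10:120417367-120418193, intron) was the strongest of that locus. It ranked 9938 and 5543 at 0 h, 20544 and 22322 after 48 h, 17412 and 22626 after 72 h, and 20890 and 15882 after 96 h. All 6 libraries after PHx were thus weaker than both at 0 h while the promoter of the same gene ranked higher. Its normalized log2 fold enrichment differed by -0.63 ± 0.26 at 48 h (SE, limma adjusted p = 0.455), by -0.68 ± 0.26 at 72 h (limma adjusted p = 0.735) and by -0.61 ± 0.26 at 96 h (limma adjusted p = 0.861). The sequence above holds an unbroken run of 42 bases of GT. Without 0 h replicate 2 the difference at 48 h was -0.36.

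Of the regions in the Igf2bp3 window of 169735 bp, 5 were kept in all 8 libraries, 1 of them at the promoter of the neighbouring gene Malsu1. The shorter Dlk1 window, of 50514 bp, held 2. The strongest around Igf2bp3, the 4229 region (chr6:49210267-49211040, intron), ranked 3511 and 5909 at 0 h, 7531 and 5686 after 48 h, 6428 and 7293 after 72 h, and 16279 and 5545 after 96 h, lower than 0 h at 72 h only. The 48882 region (chr6:49165648-49166721, intron), with an AP-1 match, ranked 12040 and 13115 at 0 h, 15635 and 30094 after 48 h, 15819 and 17910 after 72 h, and 22055 and 19649 after 96 h, lower in all 6 libraries. The 65928 region (chr6:49148774-49149193, intron) ranked 48821 and 46443 at 0 h, 95834 and 58647 after 48 h, 64381 and 59490 after 72 h, and 67946 and 49310 after 96 h. It too was lower in all 6, and it was lost at 48 and at 72 h.

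The strongest distal region of Igf2bp1, the 17171 region (chr11:95988506-95988980, intron), ranked 54398 and 47619 at 0 h, 68694 and 55282 after 48 h, 38551 and 69107 after 72 h, and 33641 and 60898 after 96 h, lower than 0 h at 48 h alone. In the same gene the 24698 region (chr11:95981071-95981480, intron), again with an AP-1 match, was gained at 72 h. It ranked 54397 and 58534 at 0 h, none and 29247 after 48 h, 35203 and 32932 after 72 h, and 60783 and none after 96 h. The Plagl1 promoter region (chr10:13090390-13091091) was the other region gained at 72 h. The strongest distal regions of Gpc3, Lin28b and Plagl1 were kept in all 8 libraries. They were the Gpc3 160411 region (intron, ranks 17231 to 41821), the Lin28b 96713 region (downstream, 12263 to 42831) and the Plagl1 -3426 region (intron, 10199 to 34089). The Lin28b 96713 and Plagl1 -3426 regions ranked higher at 48 h than at 0 h, and the Gpc3 160411 region ranked lower at 96 h.

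Counted together, the shares of the 193 regions lay near those of the series. At 48 h 12 of 136 member regions (8.82%) ranked higher than 0 h and 16 (11.8%) lower, against 9.12% and 12.2% of all regions. At 72 h 21 of 132 (15.9%) ranked higher and 13 (9.85%) lower, against 12.4% and 10.3%. At 96 h 10 of 111 (9.01%) ranked higher and 12 (10.8%) lower, against 8.99% and 9.74%. These counts depend on the length of the lists, since a missing interval counts as weakest and the 72 h lists were longer than those at 0 h. Of the 21 regions higher at 72 h, 10 had no interval in either 0 h library. With all lists cut to the 105206 intervals of the shortest, an alternative chosen after the data were seen, 14 of 86 (16.3%) ranked higher at 72 h and 12 (14%) lower, against 13.9% and 13.9% of all regions. At 48 h 10 of 99 (10.1%) then ranked higher and 15 (15.2%) lower, against 10.6% and 14.6%, and at 96 h 9 of 87 (10.3%) and 12 (13.8%), against 10.1% and 12.2%. Regions gained and lost were few. At 48 h 1 of 35, the Hmga2 promoter, was gained and 2 were lost, against 2.95% and 3.89% of all regions. At 72 h 2 of 40 were gained and 1 lost, against 3.28% and 3.1%, and at 96 h 2 of 39 gained and 1 lost, against 2.51% and 2.72%.

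Across all times after PHx 2 of 193 regions (1.04%) ranked higher in all 6 libraries, namely Hmga2 -357 and Meg3 -9221, against 1.12% of all regions. Another 7 (3.63%) ranked lower in all 6, against 2.28%. They were Hmga2 58802, Meg3 -19365, Igf2bp3 48882 and 65928, and 3 regions that were kept in no library, Igf2bp3 64433, Igf2 153 and Gpc3 238574. No member region was gained or lost at all 3 times, against 0.35% and 0.537% of all regions. No permutation p is given for these 9, since the separation of the groups chose them. Of the 9, Meg3 -19365, Igf2bp3 48882 and 64433, Igf2 153 and Gpc3 238574 were named after their values were seen.

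**Figure D3:**
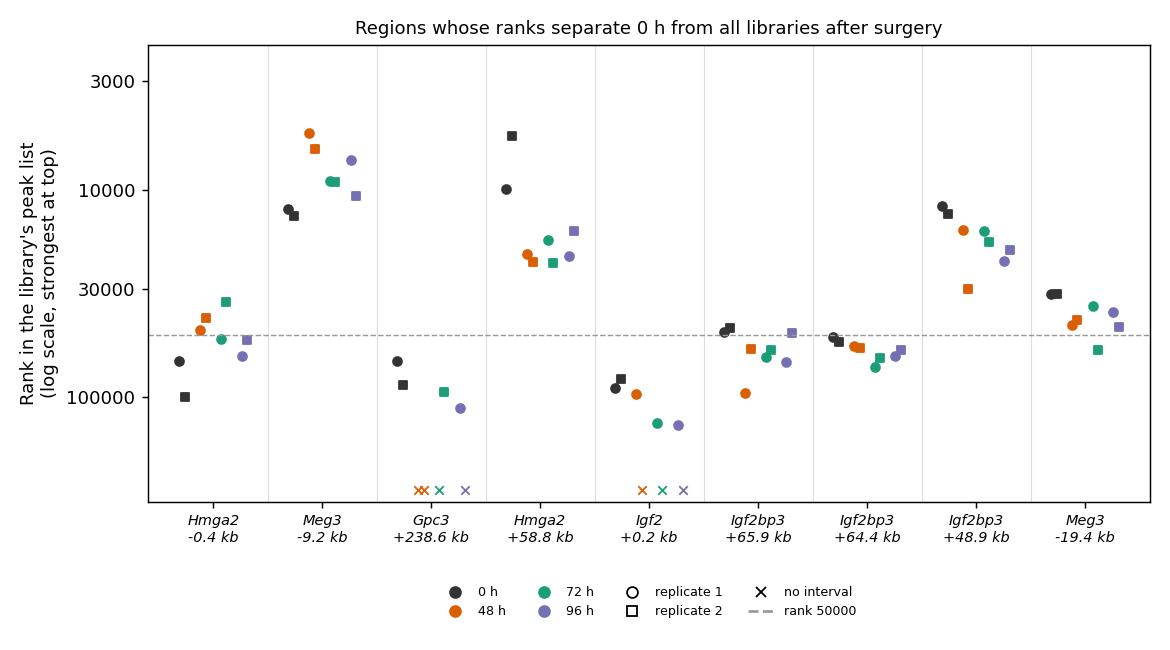
Rank (log axis, strongest at the top) in each library of the 9 regions whose 0 h ranks lie outside those of all 6 libraries after PHx, labelled by gene and distance of the summit from the nearest start in kb. Colours are the time points, circles and squares replicates 1 and 2, crosses no interval and the dashed line rank 50000. The Hmga2 promoter and the Meg3 region upstream of it rank higher after PHx and the other 7 lower.

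In fold enrichment, no region of the series passed limma at an adjusted p of 0.05 at any time point, 0.0% of 57473. Of the 31 member regions with an interval in all 8 lists, 3 had an unadjusted p under 0.05 at 48 h, 2 at 72 h, 1 at 96 h and 2 for the mean of the 3 times. Over all regions the shares with such a p were 9.89%, 6.28%, 5.68% and 7.75%. The lowest adjusted p among the members was 0.405 at 48 h, 0.735 at 72 h, 0.861 at 96 h and 0.529 for the mean by limma. At 48 h the 3 were Hmga2 -357, which was higher, and Hmga2 58802 and Igf2 26617, which were lower.

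**Figure D4:**
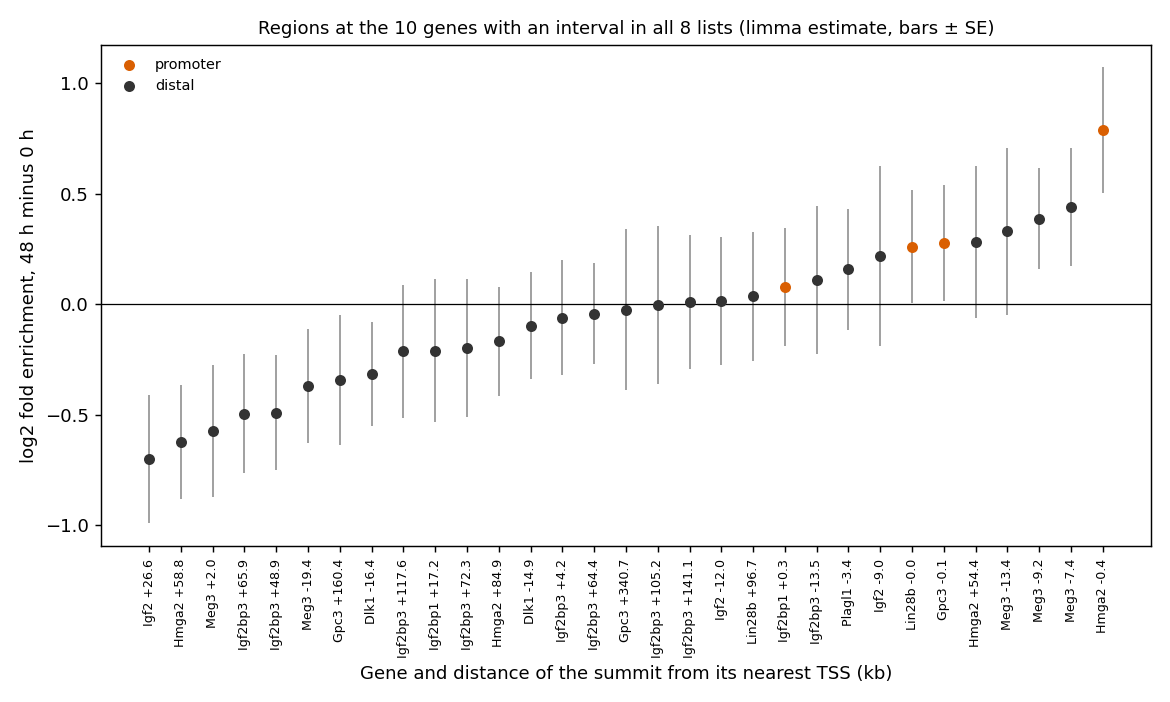
Difference in quantile-normalized log2 fold enrichment between 48 h and 0 h for the 31 regions with an interval in all 8 lists, ordered by size, with bars of ± 1 SE from limma. Promoter regions are orange and distal ones black. The Hmga2 promoter region is highest at 0.79 and the Igf2 26617 region lowest at -0.70, and no value passed the adjusted test.

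The promoters of related genes were read from 4 further lists. Of 27 other imprinted genes, 23 were found in the annotation, 15 had a promoter interval in all 8 lists and 2 (Nnat and Rtl1) in none. At 48 h 4 ranked higher than 0 h and 3 lower. Lower were Peg10 and Sgce, which share a promoter (38596 and 33882 at 0 h, 53297 and 69166 after 48 h), and Slc38a4, an amino acid transporter gene (34450 and 41549, then 51597 and 64798). Higher was Zdbf2 (93947 and none at 0 h, then 68277 and 55073), and so were Gnas, Igf2r and Magel2. Dio3, at the far end of the Dlk1 and Meg3 cluster, had a strong promoter in all 8 libraries, at ranks 1872 to 11697, while Rtl1, within the cluster, had none and Mirg had an interval in 1 list. Gnas, Igf2r, Magel2, Nnat, Dio3, Rtl1 and Mirg were named in this list after their values were seen.

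Of 14 other oncofetal genes, all had a promoter interval in some library and 8 in all. At 48 h 3 ranked higher and 3 lower. Trf, the transferrin gene, was lower (21036 and 18964 at 0 h, none and 32015 after 48 h), and so were Peg10 and Mycn, a proto-oncogene (5871 and 11796, then 15050 and 20677). Prom1 was higher (31068 and 36301, then 16678 and 30012), and so were Sall4 and Lin28a, which had no interval at 0 h and ranked 74054 and 58822 and 70357 and 89162 after 48 h. Sall4, a stem cell transcription factor, then had an interval in all libraries at 72 and 96 h, while Lin28a had none. The promoter of Afp, the alpha-fetoprotein gene, had an interval in 48 h replicate 2 (93573) and 72 h replicate 2 (107902) only. Sall4, Lin28a and Afp were named after their values were seen.

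Of the 10 regulators of these genes, 9 had a promoter kept in all 8 libraries. Over all protein-coding genes the share was 50%, and over all promoters with a CpG ratio of at least 0.6 it was 79.1%. At 48 h 2 ranked higher and 4 lower. Zfp57, a zinc finger protein that guards imprints, went from 48053 and 76599 at 0 h to 19453 and 18696 after 48 h, while Trim28, its corepressor, went from 19069 and 15473 to 27490 and 24263. Zhx2, a repressor of H19 and Afp in the liver after birth, ranked 28061 and 30004 at 0 h and 21696 and 17374 after 48 h. Zbtb20, another postnatal repressor of Afp, ranked 3325 and 5064, then 8353 and 6520. Dicer1, which processes microRNA precursors, let-7 included, ranked 1434 and 1725, then 5389 and 3355, and Uhrf1, which recruits the maintenance methyltransferase, was the fourth that ranked lower. Trim28 and Uhrf1 were named after their values were seen.

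Among 9 partners of IGF signalling 8 had a promoter interval in all lists, and at 48 h 1 ranked higher and 3 lower. The receptor gene Igf2r, which clears IGF2 from the cell surface, was higher (53806 and 40370 at 0 h, 28428 and 33560 after 48 h). Insr, the insulin receptor gene, was lower (7154 and 4994, then 10985 and 15812), as were the binding protein genes Igfbp1 (24474 and 17222, then 40503 and 30315) and Igfbp2 (15831 and 17407, then 25474 and 19305). Insr and Igfbp1 stayed lower in all 6 libraries after PHx, against 6.25% of all promoters. Slc38a4 of the other imprinted genes and Trf of the other oncofetal genes did so too. Zdbf2 and Sall4 of the same lists ranked higher in all 6 (3.77% of all promoters). In each of the 4 lists the share of promoters that ranked higher or lower at 48 h stands against 16.2% and 25.2% over all genes.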

How the data were processed

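Bulk ATAC-Seq peak lists of 8 hepatocyte libraries were analysed. Per the study's methods, the authors mapped reads to mm10 with Bowtie2 in the ENCODE pipeline and called peaks with MACS2. The deposited lists give a fold enrichment ratio, a −log10 p, a −log10 q and a summit. The deposited display score, which the authors' peak caller derives from its p-values, was not used. They hold no counts, so the depth is unknown, no counting intervals were made and the authors' read-count test was not run.

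Lines sharing an interval were collapsed to the highest −log10 p and ranked. Intervals of all lists overlapping by at least 1 bp were merged into regions. A region was gained at a time if kept in both its libraries and in neither at 0 h, and lost in the reverse case. A library without an interval counted as weaker than any rank. Starts came from GENCODE M21 basic transcripts plus the 5′ end of each gene, sequence from GRCm38.p6, where 0 intervals passed a chromosome end. RefSeq promoter sequences matched 8 of the 10 genes and were not printed. Motifs were sought in 200 bases around summits. Fold enrichment was tested with limma 3.58.1 on quantile-normalized log2 values in 4 groups, with Benjamini-Hochberg adjustment over 57473 regions, after a check on simulated data. The study's text describes separate mice, and at 0 and 48 h more replicates than the 2 analysed here, but the labels tie no library to an animal, so p-values measure only the spread between these libraries. Over 6 pairs of groups, deviations of same-numbered libraries correlated between -0.055 and 0.125, so the numbers did not pair them.

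Members and lists were chosen with earlier results of these data known. Named were all 10 promoters, the best distal region of each locus, regions gained or lost, and at most 4 genes of each list in order of the gap at 48 h, and further list genes and regions were named after their values were seen. A promoter's rank in a library is that of its strongest interval reaching into the 1 kb around a start. The alternatives were other promoter and window widths, rank measures, interval limits, normalizations and start annotations, a replicate block and leaving out each library. The start definition was chosen after seeing the data, as were the mean of the 3 times and the lists cut to the shortest.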

Additional observations from a re-analysis of the deposited data

Results flagged for a closer look

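The Igf2bp1 24698 intronic region met the rule on opposite movement. Against 0 h its ranks at 48h overlap, at 72h both were higher (35203 and 32932 against 54397 and 58534) and at 96h both were lower (60783 and no interval). The mean 0 h rank over the mean 72 h rank was 0.73 on the log2 scale. The difference between the time points was not tested, and the time points share the 0 h libraries.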

How the results depend on the processing

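The limma result was 0 changed member regions at every time point and for the mean of the 3 times under every alternative run, the replicate block and every library left out included, with 0 calls in the fit with the replicate block. With a library left out its partner alone stands for the group and is assumed to vary like the others. Counts of promoters and regions moved. Promoters lower at 48 h went from 0 to 1 with a 2 kb window and 1 with the starts of all transcripts, and from 0 to 3 with 1 library left out. Promoters higher at 72 h went from 3 to 5 by percentile and from 3 to 7 with 1 library left out, and those lower from 0 to 1 with windows of 500 bp or 2 kb or all starts and from 0 to 2 without a library. Promoters higher at 96 h went from 2 to 0 ranked by fold enrichment, 1 with basic starts only and 3 to 4 without a library, and those lower from 0 to 1 by fold enrichment and from 0 to 3 without a library. Leaving out a library makes non-overlap easier by construction, and each of the 8, left out, moved at least 1 count. The largest moves came without 0 h replicate 2 (3 promoters lower at 96 h), 72 h replicate 1 (7 higher at 72 h) and 48 h replicate 2 (3 lower at 48 h). Among the 25000 strongest intervals, 0 regions were lost at 48 h, 0 gained or lost at 72 h and 0 gained at 96 h. Over all deposited intervals gained regions were 4, 10 and 1 at the 3 times and lost ones 4, 2 and 0. With q under 0.05 gained regions were 3, 6 and 1 at the 3 times and those lost at 72 h 2. With windows of 50 kb lost regions were 4, 3 and 3, and with 10 kb those gained at 96 h were 1. Without a library, gained regions ranged from 1 to 3 at 48 h, 2 to 6 at 72 h and 2 to 6 at 96 h, and lost ones from 2 to 5, 2 to 3 and 1 to 4. The highest came without 0 h replicate 1 (5 lost at 48 h), 72 h replicate 2 (6 gained), 96 h replicate 2 (6 gained) and 0 h replicate 2 (4 lost at 96 h). None of the 9 promoter calls of the report turned to the opposite call. Of 19 comparisons of a promoter with 0 h that overlapped, 11 gave opposite calls under different alternatives. For Dlk1 at all 3 times and Igf2bp3 at 96 h the call was higher without 0 h replicate 1 and lower without 0 h replicate 2. For Igf2bp1 and Plagl1 at 48 and 96 h, Gpc3 at 96 h and Lin28b at 72 h it turned with the replicate of that time left out, and for Meg3 at 72 h between leaving out 72 h replicate 1 (higher) and a 2 kb window or all starts (lower). The cause was not tested.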

Other observations

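For the 5 promoters with an interval in all 8 lists, the genes whose log2 promoter rank ran most alike over the 8 libraries were sought among 14369 promoters. They were Ddx31, Gtf3c4 and Med10 for Igf2 and 1700064H15Rik, Sntb1 and Gab3 for Gpc3. For Igf2bp1 they were Bloc1s2, Nr2c1 and Rnf168, for Lin28b Il12b, Spag6 and 9330182L06Rik, and for Hmga2 Spata6, Rgs7bp and Dkk2. Pearson's r lay between 0.945 and 0.971 for these 15, the 3 highest of 14369 values for each promoter. All these values share the same 8 libraries with their depth and list length, so they are a description. The most open promoter in the list of other imprinted genes was that of Zim1, which ranked between 134 and 725 in all 8 libraries.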
